A study of Mus musculus with 6 samples.

Results

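The genes described here encode parts of the BMP, activin and TGF-beta pathways: ligands, receptors, secreted antagonists, latency proteins, SMAD proteins, their inhibitors and the ID target genes. Members were chosen by a rule on the gene symbol, and 78 of the 23420 genes in the table were found. A mean raw count of 10 or more, averaged over the genotypes, was reached by 68 of the 78 members and by 15696 of all genes. RNA was sequenced from whole uterus of mice in which the forkhead transcription factor FOXO1 had been removed and from their controls. The control group was Foxo1f/f, which carries the floxed alleles without Cre, and the conditional knockout was PgrCre/+ Foxo1f/f, written Foxo1d/d here. All females were C57BL/6J and 8 weeks old, had been mated with vasectomized males, and were at day 4.5 of pseudopregnancy. Each genotype had 3 libraries and each library pooled 2 mice, and the table holds 1 mean count per gene and genotype, which is printed below as the authors' mean. The comparison made here had no replicate check, since the spread between pools cannot be computed from these means and the authors' own test columns in the table were not used; the 95% intervals given are Wilson intervals that cover counting error only. PgrCre is active in cells that have expressed the progesterone receptor, which include uterine epithelium, stroma and muscle and also pituitary and preovulatory granulosa cells, so the deletion was not restricted to the uterus.

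BMPs, GDFs, activins and TGF-betas are secreted dimers that bring together type 1 and type 2 serine/threonine kinase receptors, and the type 1 receptor then phosphorylates receptor-regulated SMADs, which enter the nucleus with SMAD4. SMAD1, SMAD5 and SMAD9 mainly carry BMP signals, and SMAD2 and SMAD3 mainly carry activin and TGF-beta signals. Antagonists such as noggin and follistatin bind the ligands outside the cell, and in the uterus BMP2 signaling through its receptors is known to be needed for decidualization of the stroma.

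The targeted gene was lower in the knockout. Foxo1 (Entrez Gene 56458, chr3:52268337-52350109 in RefSeq on GRCm38.p6) averaged 3941 counts in Foxo1f/f against 1456 in Foxo1d/d, which is 151 against 53.4 CPM (counts scaled to a total of 1000000 per genotype), with a log2 ratio of -1.50 and a counting interval of -1.55 to -1.45. The floxed allele removes a coding exon, so reads from the other exons and from cells without Cre remain countable. Mean counts summed to 26125014 per library in Foxo1f/f and to 27257963 in Foxo1d/d, and ratios below set the knockout over the control after division by these totals, with a pseudocount of 1 added to each mean count; folds and intervals are without the pseudocount.

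Among the 68 members past the count filter, 5 were at least 1.5-fold higher in Foxo1d/d, against a background of 5.43% of the 15696 genes, and 3 were at least 1.5-fold lower, against 3.51%. The higher members included the ligands Bmp5, Bmp8b and Gdf15 and the type 1 receptor Acvr1c, and the lower members were the secreted proteins Fstl4, Nog and Fst. Together they were 11.8% of the members, and 8.94% of all genes lay past 1.5-fold in either direction. The median log2 ratio was -0.04 over the members and 0.02 over all genes, and the median absolute log2 ratio was 0.18 and 0.14. The sign of the members' median was positive, at 0.02, when members with any count were included. The counting interval lay to one side of 0 for 52 members, 76.5%, and for 64.0% of all genes. Differences smaller than 1.5-fold were the rule, with 60 members inside that range. In the plot of all genes, Bmp5, Bmp8b, Gdf15 and Acvr1c had mean counts under 50, whereas the 3 lower members had more.

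**Figure D1:**
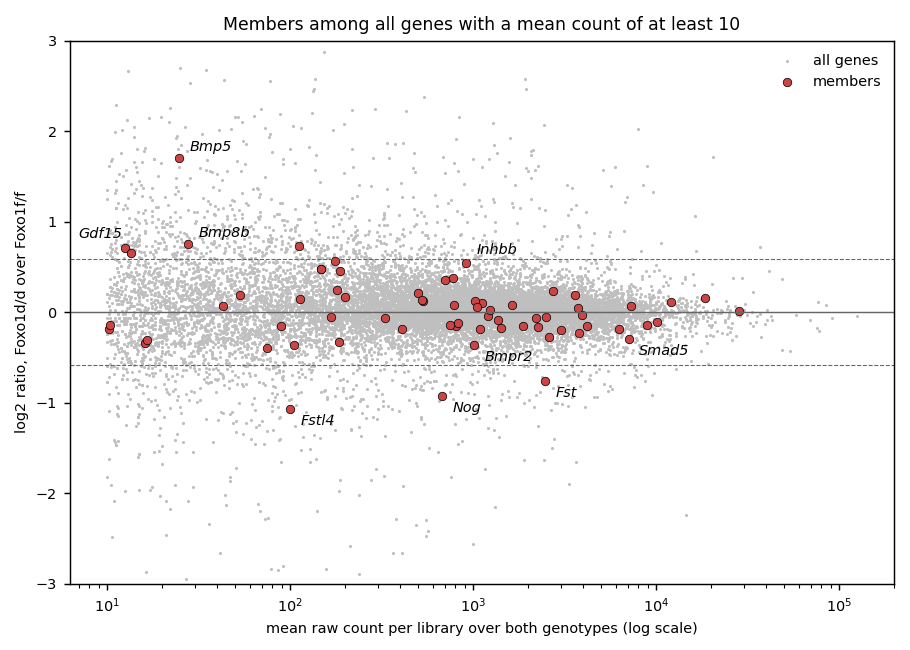
Each point is a gene, with the mean raw count per library on a log scale across and the log2 ratio (knockout over control) upward; grey points are the 15696 genes past the count filter, red points the 68 members, and dashed lines mark 1.5-fold. Nog (log2 ratio -0.92) and Fst (-0.76) lie below the lower line, Bmp5 (1.70) lies highest among the members, and 28 genes lie outside the plotted range of 3 in either direction.

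Promoter windows of 300 bases, 250 before and 50 after an annotated start, were found in RefSeq on GRCm38.p6 for 54 of the 78 members, 66 windows in all. Among the 8 members past 1.5-fold, Bmp5, Bmp8b, Gdf15, Acvr1c and Fstl4 had a window, and Nog and Fst were among those without. The forkhead motif GTAAACA, on either strand, was in 0 of the 66 windows and in 3.65% of all 32851 windows. The BMP SMAD motif GGCGCC, which reads the same on both strands, was in 17 member windows, 25.8%, and in 11.9% of all windows; the median share of G and C was 63.7% in member windows and 52.7% in all. It was in none of the 7 windows of the members past 1.5-fold, and it was in windows of 15 members: Grem1, Bmpr2, Smad9, Smad5, Chrd, Tgfbr1, Id4, Smurf2 and Acvr1b, with ratios under 0, Id2, Gdf10, Tgfbi, Bmpr1a and Ltbp4, with ratios above 0, and Gdf1, listed at 0 counts. A match describes these letters and is not a binding site. Windows are shown 5′ to 3′ on the strand of the gene, with GGCGCC in capitals. They belong to the member with the highest ratio, to Fstl4, to the antagonist Grem1, and to a type 2 receptor and a SMAD that were lower.
Bmp5, chr9:75775115-75775414, plus strand: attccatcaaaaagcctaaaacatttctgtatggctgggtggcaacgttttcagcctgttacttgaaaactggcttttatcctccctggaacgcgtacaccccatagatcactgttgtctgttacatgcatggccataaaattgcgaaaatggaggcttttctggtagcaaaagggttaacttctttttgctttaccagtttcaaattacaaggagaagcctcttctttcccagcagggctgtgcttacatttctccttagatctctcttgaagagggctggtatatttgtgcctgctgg
Fstl4, chr11:52764456-52764755, plus strand: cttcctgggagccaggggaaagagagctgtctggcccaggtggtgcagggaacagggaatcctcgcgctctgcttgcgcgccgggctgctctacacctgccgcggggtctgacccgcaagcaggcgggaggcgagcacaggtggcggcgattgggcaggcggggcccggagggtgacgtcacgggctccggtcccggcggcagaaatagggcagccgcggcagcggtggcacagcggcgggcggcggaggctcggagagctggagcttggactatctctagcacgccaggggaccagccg
Grem1, chr2:113758599-113758898, minus strand: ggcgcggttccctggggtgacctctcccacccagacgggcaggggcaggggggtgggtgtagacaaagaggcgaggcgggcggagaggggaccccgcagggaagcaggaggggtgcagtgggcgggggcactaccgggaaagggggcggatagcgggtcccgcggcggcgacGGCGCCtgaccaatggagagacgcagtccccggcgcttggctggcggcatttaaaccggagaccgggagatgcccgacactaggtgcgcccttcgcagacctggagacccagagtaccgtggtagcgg
Bmpr2, chr1:59764029-59764328, plus strand: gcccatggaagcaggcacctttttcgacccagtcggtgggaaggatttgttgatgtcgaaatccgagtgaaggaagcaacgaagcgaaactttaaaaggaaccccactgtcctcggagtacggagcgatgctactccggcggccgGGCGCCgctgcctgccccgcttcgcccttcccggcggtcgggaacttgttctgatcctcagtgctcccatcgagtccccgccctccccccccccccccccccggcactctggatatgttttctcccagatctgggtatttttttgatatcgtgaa
Smad9, chr3:54755332-54755631, plus strand: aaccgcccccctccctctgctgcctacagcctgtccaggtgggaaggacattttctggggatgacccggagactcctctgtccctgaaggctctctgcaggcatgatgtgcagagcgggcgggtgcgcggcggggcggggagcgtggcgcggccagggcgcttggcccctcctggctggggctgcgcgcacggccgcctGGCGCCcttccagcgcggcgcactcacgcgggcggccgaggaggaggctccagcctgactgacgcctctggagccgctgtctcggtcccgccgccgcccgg

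Of the 21 BMP and GDF ligands, 17 passed the filter, and their median log2 ratio was 0.11. Of these, 3 were at least 1.5-fold higher and 0 lower, against 5.43% and 3.51% of all genes past the filter. The 3 had mean counts under 50 in each genotype. Bmp5 had the highest ratio of all members, averaging 10.7 counts against 38.7, 3.47-fold higher, a log2 ratio of 1.70 and an interval of 1.24 to 2.36. The gene (Entrez Gene 12160, chr9:75775365-75900316) was scarce, at 0.371 CPM per kilobase in Foxo1d/d. In the GENCODE annotation 49.1% of its exon length is shared with Gm26903 on the opposite strand, and since strand-specific counting is not given in the sources used here, reads of the 2 genes cannot be told apart. Bmp8b averaged 19.7 against 35.3, a log2 ratio of 0.75 with an interval of 0.33 to 1.24. Its near-identical paralog Bmp8a had 3 and 6, with an interval of -0.19 to 2.06 that includes 0, and reads of this pair may have been split between them or discarded. Gdf15, a stress-induced ligand, had 9 and 16, with a log2 ratio of 0.70 and an interval of 0.09 to 1.44.

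**Figure D2:**
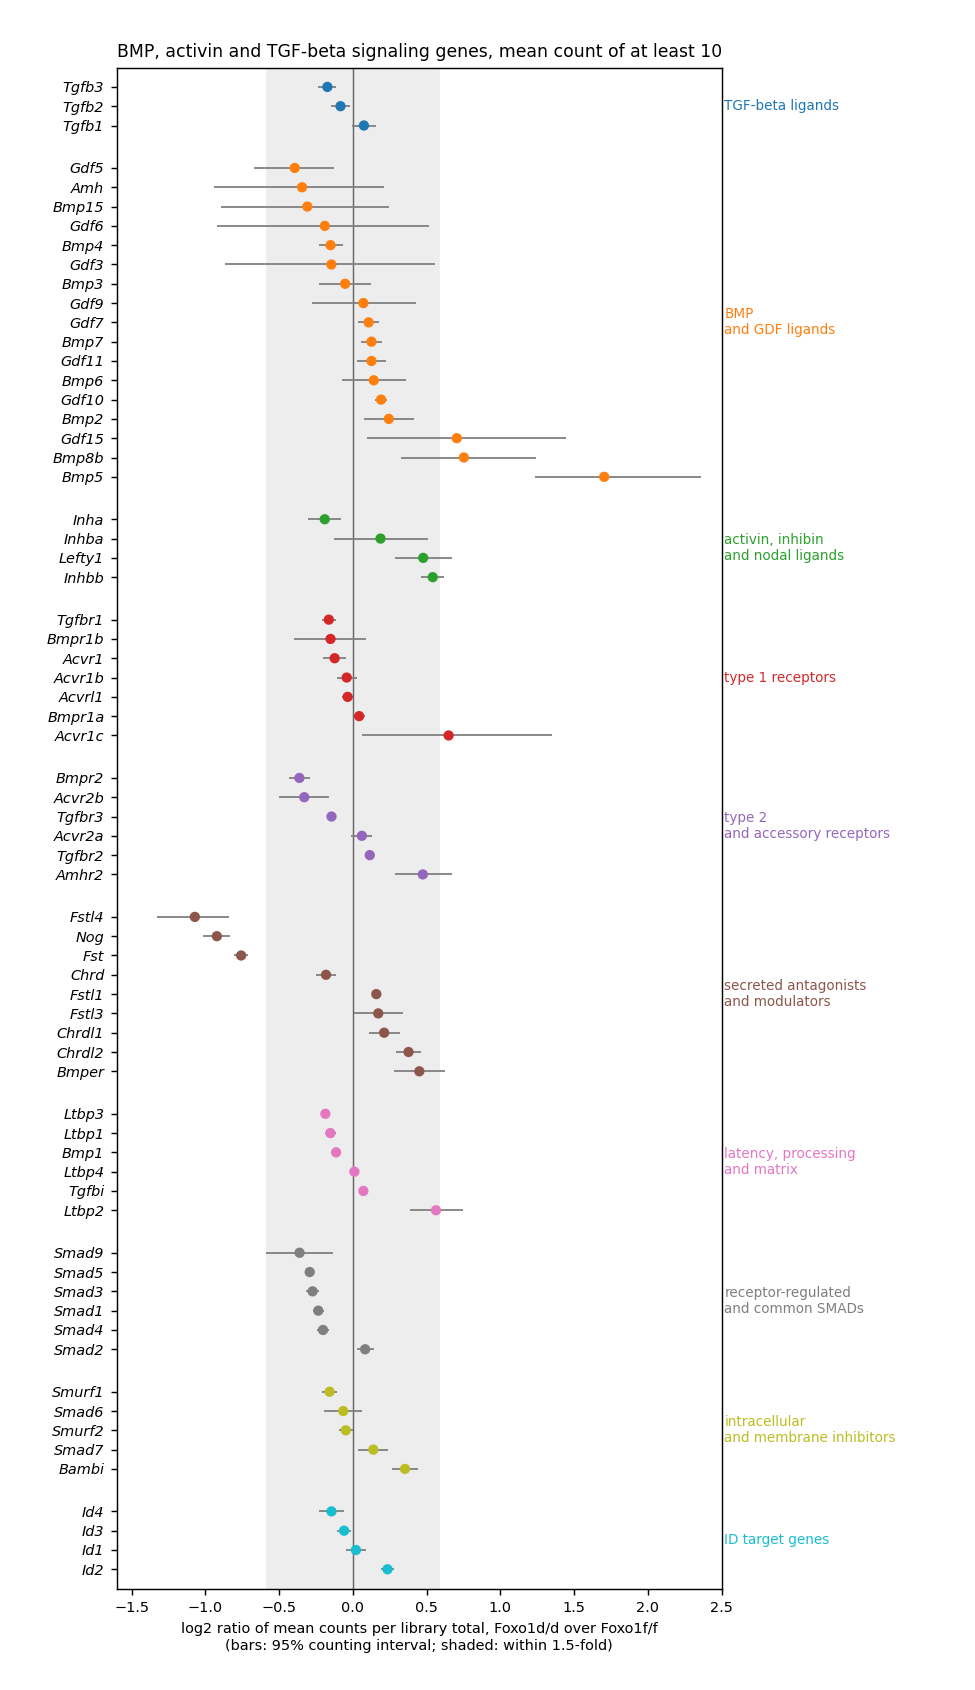
Each row is 1 of 67 members past the count filter, grouped by role and ordered by ratio; points are log2 ratios, knockout over control, bars are 95% counting intervals, and the shaded band is within 1.5-fold. The points outside the band are Fstl4, Nog and Fst to the left and Bmp5, Bmp8b, Gdf15 and Acvr1c to the right. Left of 0 lie 5 of the 6 receptor-regulated and common SMADs, beside 35 of all 68 members past the filter.

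The BMPs best known in the uterus differed little. Bmp2, which stromal cells make during decidualization, averaged 162 counts against 200.3, log2 ratio 0.24 with an interval of 0.07 to 0.42. Bmp4 was at 833 and 783 (-0.15) and Bmp7 at 959 and 1092 (0.13). Gdf5, a ligand known from joint formation, was lower, at 83 and 65.7, with a log2 ratio of -0.39 and an interval of -0.67 to -0.13, and 40.3% of its exon length is shared with a gene on the opposite strand. Amh, anti-Müllerian hormone, had 17.7 and 14.3, with an interval of -0.94 to 0.21. Per kilobase, Gdf7 was the most abundant ligand of the group, at 28.3 CPM in controls against 30.5 in knockouts, followed by Gdf10 at 24.2 and 27.6 and Bmp4 at 15.5 and 13.9. Bmp2 stood at 1.74 and 2.07 per kilobase. Not divided by length, Gdf10 led the group at 126 and 144 CPM, against 40.3 and 43.4 for Gdf7. The other ligands past the filter, Bmp3, Bmp6, Bmp15, Gdf3, Gdf6, Gdf9 and Gdf11, had log2 ratios between -0.31 and 0.14. Bmp10 had at most 1 count over the libraries of a genotype, and Gdf2 averaged 0.333 against 1.33, with an interval from -0.79 to 4.67. Gdf1 was listed at 0 in both genotypes. The annotation shares all of the Gdf1 exons with Cers1, on the same strand, or Upf1. Reads of Gdf1 may thus have been discarded, and the 0 sets no limit on its level.

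Among the activin, inhibin and nodal ligand transcripts past the filter, that of Inhbb differed most. Inhbb, which encodes the beta-B subunit of activins and inhibins, averaged 721 counts against 1095, 1.46-fold higher, a log2 ratio of 0.54 with an interval of 0.46 to 0.62, just short of 1.5-fold. Inhba, the beta-A subunit, had 48.7 and 58, and its interval of -0.12 to 0.51 includes 0. Inha, whose alpha subunit turns the beta subunits into inhibins, had 429 and 392 (-0.19). Per kilobase, Inha was above Inhbb in Foxo1f/f, at 11.1 against 6.48 CPM, while in Foxo1d/d the 9.74 of Inha and the 9.44 of Inhbb were within counting error of each other. Not divided by length, Inhbb was above Inha in both genotypes, at 27.6 against 16.4 CPM in Foxo1f/f and 40.2 against 14.4 in Foxo1d/d. Lefty1, an inhibitor of nodal signals, was higher, at 121 and 176 (0.48). Inhbc and Inhbe were at or under 3 counts over the libraries of each genotype, so no fold is given, and the intervals of Nodal (-2.47 to 1.52) and Lefty2 (-1.15 to 2.00) include 0. The TGF-betas were close between genotypes, with log2 ratios of 0.07 for Tgfb1, -0.08 for Tgfb2 and -0.17 for Tgfb3, from mean counts of 746, 1372 and 1477 in Foxo1f/f.

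All 13 receptors passed the filter, and 12 of them lay within 1.5-fold. Of all genes past the filter, 8.94% lay outside that range. Among the type 1 receptors, Acvr1c, which encodes ALK7, averaged 10 counts against 17, a log2 ratio of 0.65 with an interval of 0.06 to 1.35. Tgfbr1 was at 2348 and 2187 (-0.16), Acvr1 at 848 and 812 (-0.12) and Bmpr1a at 3589 and 3856 (0.04). Bmpr1b, Acvr1b and Acvrl1, the last known from endothelium, lay between -0.15 and -0.04. Bmpr2, the type 2 receptor of BMPs, averaged 1113 against 903, a log2 ratio of -0.36 with an interval of -0.44 to -0.29. Acvr2b, a type 2 receptor of activins and BMPs, had 201 and 167 (-0.33), while its paralog Acvr2a had 1003 and 1091 (0.06). Amhr2, the receptor of anti-Müllerian hormone, had 121 and 175 (0.47). Tgfbr2, the type 2 receptor of TGF-betas, was at 11322 and 12790 (0.11), and the co-receptor Tgfbr3 at 9173 and 8654 (-0.15). Per kilobase, Tgfbr3 led the receptors in Foxo1f/f, at 57.7 CPM against 52.9 for Tgfbr2, and the order was the other way in Foxo1d/d, at 52.2 against 57.3. Not divided by length, Tgfbr2 was above Tgfbr3 in both genotypes, at 433 against 351 CPM in Foxo1f/f and 469 against 317 in Foxo1d/d.

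Secreted antagonists and modulators held all 3 members that were at least 1.5-fold lower. They were 3 of 10 past the filter, and 3.51% of all genes past the filter were lower by that much. Nog (Entrez Gene 18121, chr11:89300638-89302559) encodes noggin, which binds BMPs and keeps them from their receptors. It averaged 866 counts in Foxo1f/f against 476 in Foxo1d/d, 1.90-fold lower, with a log2 ratio of -0.92 and an interval of -1.02 to -0.83. Only 1.63% of all genes had a lower ratio. Fst (Entrez Gene 14313, chr13:114452262-114458989) encodes follistatin, which binds activins and, more weakly, several BMPs. It averaged 3046 counts against 1879, 1.69-fold lower, a log2 ratio of -0.76 with an interval of -0.81 to -0.71, and 2.32% of all genes had a lower ratio. Fstl4, a follistatin-like protein, averaged 133 counts against 65.7, a log2 ratio of -1.07 with an interval of -1.33 to -0.84. Grem1, a BMP antagonist of the DAN family, averaged 14.3 against 3.33 (log2 ratio -1.88) with an interval of -3.14 to -1.19; its overall mean, 8.83, was under the filter, so it is in neither count. The Grem1 window printed above holds GGCGCC and the Fstl4 window does not.

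Of the 10 antagonists and modulators past the filter, 1 that is not named here passed the 1.5-fold line upward. Those with a ratio given in this paragraph stayed inside that line, and Bmper and Chrdl2 lay furthest above 0 among them. Bmper, which binds BMPs and can block or aid them, averaged 154 against 220.0 counts (0.45). Chrdl2, a chordin-like protein, averaged 655 against 888 (0.38). Closer to 0 were Chrdl1 (0.21), Fstl3 (0.17), Fstl1 (0.16) and Chrd (-0.18), and Fstl5 had at most 1 count over the 3 libraries of a genotype. Of the Fstl3 exon length 59.2% is shared with Prss57 on the opposite strand. Summed over all 12 antagonists and modulators, 907 CPM in controls stood against 926 in knockouts, and most of that sum was Fstl1, at 649 and 725.

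Nog, Fst, Fstl4 and Grem1 together made up 155 CPM in controls against 88.9 in knockouts; this sum was formed after their values were seen. Per kilobase of exon, which allows levels to be compared between genes, Fst was at 41.2 CPM in controls against 24.3 in knockouts. Nog was at 19.5 and 10.3 on the same scale, and Chrdl2 at 14.5 and 18.9. Noggin transcripts were thus above those of Chrdl2 in Foxo1f/f and below them in Foxo1d/d.

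Of the 6 receptor-regulated and common SMADs, 5 were lower in Foxo1d/d, none of them by 1.5-fold, and the median log2 ratio was -0.25. Ratios were under 0 for 35 of the 68 members past the filter and for 7047 of the 15696 genes. Smad5 averaged 7622 against 6491 counts, a log2 ratio of -0.29 with an interval of -0.32 to -0.27. Smad1 was at 4035 and 3577 (-0.24), and the scarcer Smad9, whose window is printed above, at 116 and 94 (-0.36). Smad1, Smad5 and Smad9 together gave 451 CPM in controls against 373 in knockouts. Smad3 was at 2772 and 2392 (-0.27) and the common partner Smad4 at 3182 and 2885 (-0.20), whereas Smad2 was at 1544 and 1706 (0.08). Centring the ratios on the median gene moved all of them by the same 0.02 and changed no sign among the 6. In whole uterus, fewer cells of a type and less RNA per cell cannot be told apart, and the markers of 2 cell types were lower by a like amount. All 9 smooth muscle markers had ratios under 0, with a median of -0.27 and a sum of 7251 CPM in controls against 5854 in knockouts, led by Myh11 at 2323 and 1724. The lowest ratios were those of Myh11 (-0.43), Actg2 (-0.41), Lmod1 (-0.41) and Des (-0.34). All 8 endothelial markers were also under 0, with a median of -0.22 and a sum of 1700.1 and 1436, led by Pecam1 at 373 and 319, and the lowest ratios were those of Vwf (-0.41), Emcn (-0.24), Pecam1 (-0.22) and Cdh5 (-0.22). Their part in the lower values of the SMADs, Bmpr2 and Acvr2b was not tested.

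**Figure D3:**
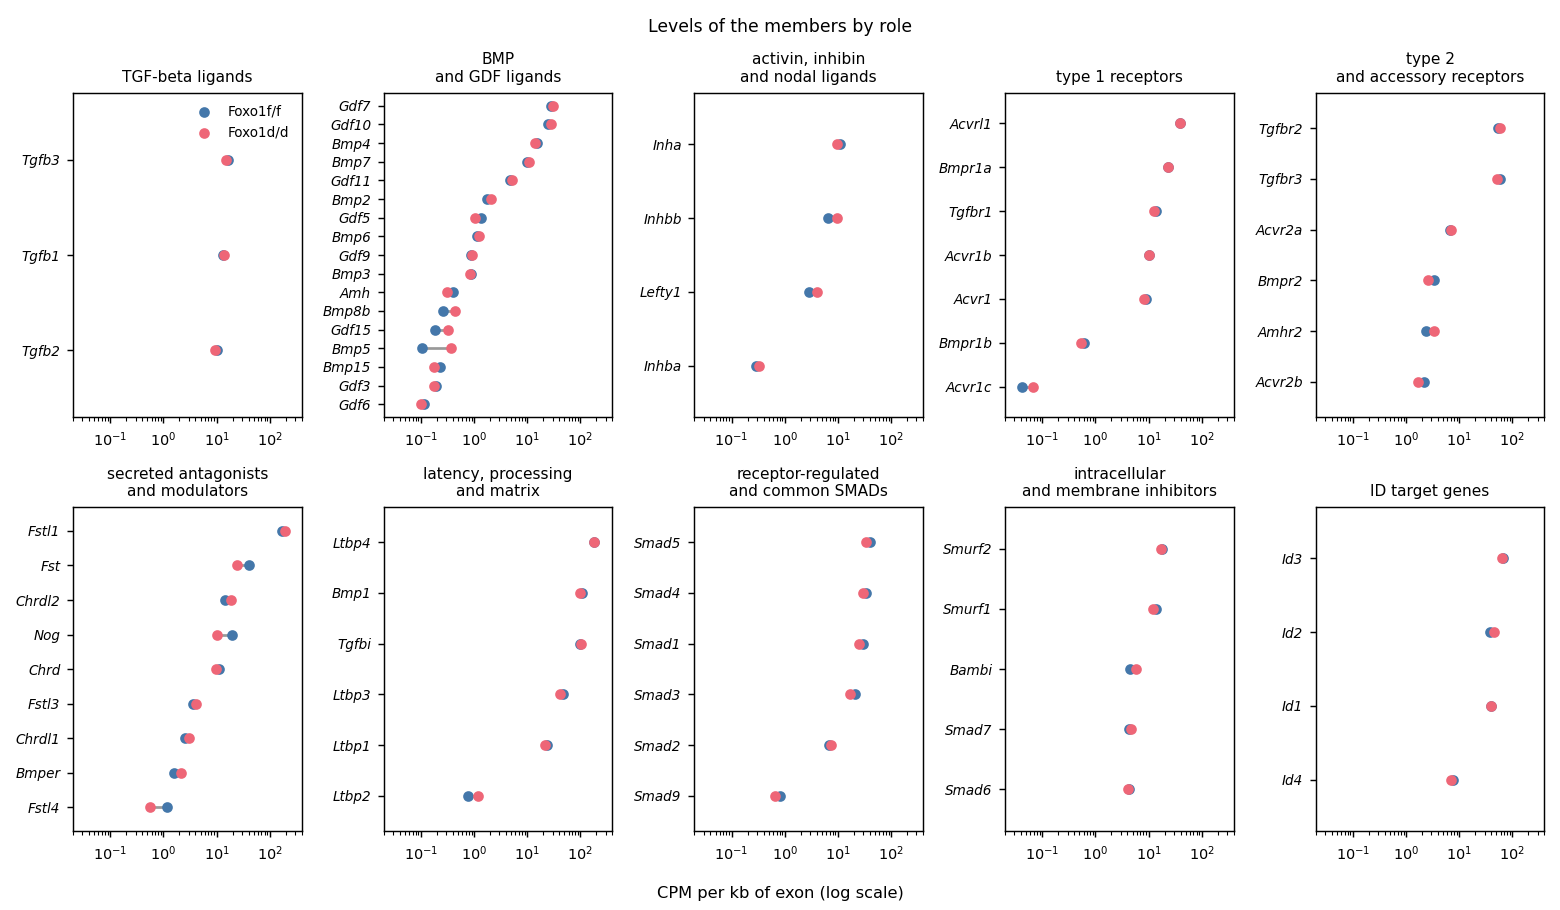
CPM per kilobase of exon on a log scale for 67 members in 10 panels by role, with Foxo1f/f in blue, Foxo1d/d in red and a line joining the 2 values of a gene. Ltbp4 and Fstl1 are the most abundant members, at 179 and 171 in Foxo1f/f, and the longest lines belong to Bmp5, Fstl4 and Nog.

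Inhibitors inside the cell and at the membrane were within 1.5-fold. Bambi, a pseudoreceptor that lacks the kinase, averaged 603 counts against 804, a log2 ratio of 0.35 with an interval of 0.27 to 0.44. Smad7, which blocks type 1 receptors, was at 486 and 559 (0.14), and Smad6, which mainly blocks BMP signals, at 330.0 and 329 (-0.07, interval -0.19 to 0.06). The ubiquitin ligases Smurf1 and Smurf2 were at -0.16 and -0.05. The ID genes encode inhibitors of basic helix-loop-helix factors and are direct targets of BMP SMADs in many cells. Id2 averaged 2441 against 2997 (0.23, interval 0.19 to 0.28), Id1 1201 and 1271 (0.02), Id3 2209 and 2212 (-0.06) and Id4 770.3 and 727 (-0.15). The sign of the Id1 ratio turned when ratios were centred on the median gene. The sum of the 4 was 253 CPM in controls against 264 in knockouts.

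Latency, processing and matrix proteins held abundant members, such as Ltbp4 at 179 CPM per kilobase in Foxo1f/f, and 0 past 1.5-fold. Ltbp2, a matrix protein of the latent TGF-beta binding family, came closest, at 139 and 214, a log2 ratio of 0.56 with an interval of 0.39 to 0.74. Ltbp1, Ltbp3, Ltbp4, Tgfbi and Bmp1, the last a protease that cleaves chordin and procollagens, lay between -0.19 and 0.07.

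Other genes of the pathways, outside the symbol rule, were read the same way. Of 32 other extracellular regulators past the filter, 2 were at least 1.5-fold higher and 5 lower, against 5.43% and 3.51% of all genes. Their median log2 ratio was -0.11. Pcsk6, a proprotein convertase that cleaves ligand precursors, averaged 1163 counts against 343 (-1.82). Wfikkn2, which binds GDF8 and GDF11, had 640.0 and 334, and Tll1, a protease that cleaves chordin, had 958 and 543 (-0.88). Itgb6, an integrin subunit that activates latent TGF-beta, was higher, at 76 and 216 (1.44). Among the regulators named, those lower in Foxo1d/d thus included a ligand-processing and a chordin-cleaving enzyme beside the antagonists described above. The more abundant convertases Furin, at 121 and 118 CPM, and Pcsk5, at 337 and 330, each had a log2 ratio of -0.03. Of 23 other intracellular regulators, 0 lay past 1.5-fold in either direction, against 8.94% of all genes, and the median was -0.01. The most distant were Tgif1 (-0.43), Crebbp (-0.32), Nedd4l (-0.20) and Wwp1 (0.19).

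Genes known to respond to the ligands were mixed. For the lists in this paragraph, the background was 5.43% of all genes past the filter at least 1.5-fold higher and 3.51% lower. Of 12 BMP response genes, 7 of which are also members, 3 were at least 1.5-fold higher and 0 lower. These were the homeobox genes Msx2, at 37.7 and 98.7 (1.30), Msx1, at 501 and 1132 (1.11), and Dlx5, at 417 and 671 (0.63), while Atoh8 was at 271 and 199.7 (-0.50). The authors describe Msx1 and Msx2 as targets of the progesterone receptor, so their ratios are not specific to BMP signals. Over the list 8 of the 12 ratios were above 0, against 8649 of the 15696 genes past the filter. The median log2 ratio of the list was 0.18. Of 22 TGF-beta and activin response genes, 1 was at least 1.5-fold higher, Snai1 at 678 and 1062 (0.59), and 0 lower, with a median of -0.04; Postn was at 18126 and 12975 (-0.54), Lox at -0.45 and the member Ltbp2 at 0.56. Of 17 implantation and decidual genes, with a median of 0.13, 4 were higher and 0 lower: Ptgs2 at 18 and 57 (1.55), Msx1, Lif at 854 and 1774 (0.99) and Ihh at 796 and 1260.3 (0.60).

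**Figure D4:**
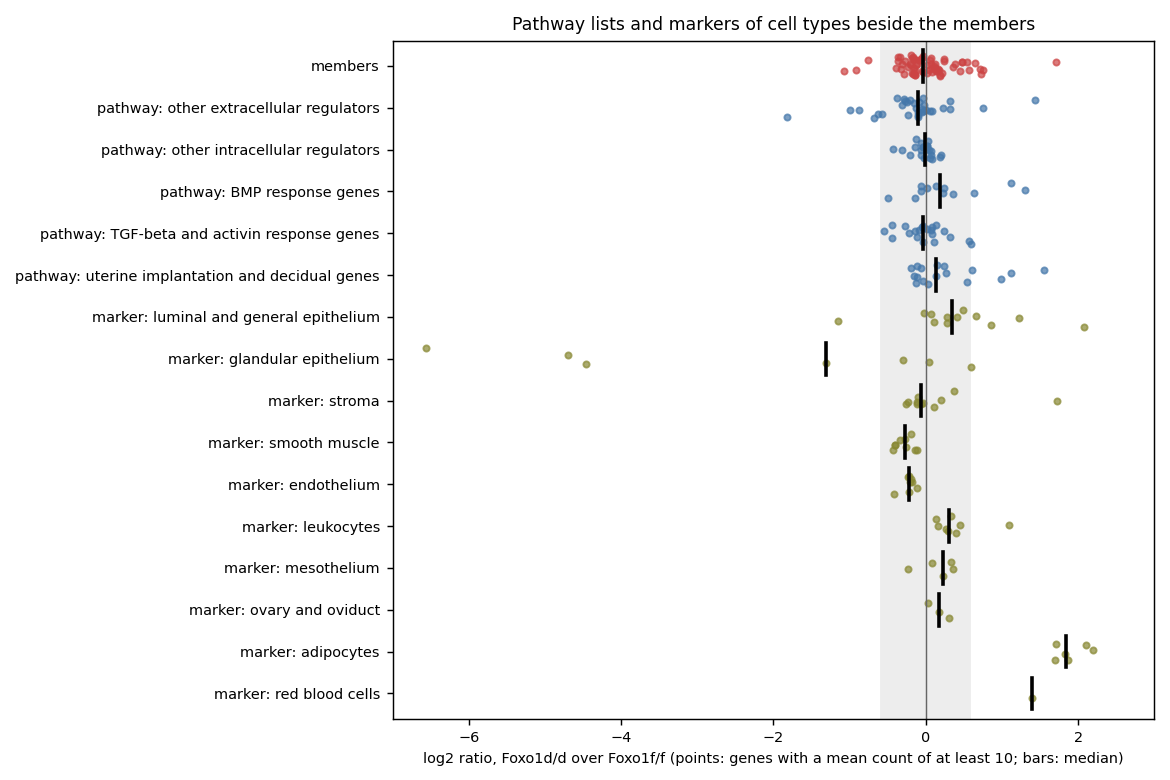
Log2 ratios, knockout over control, for the members in red, other pathway lists in blue and cell type markers in olive; points are genes past the count filter, black bars are medians and the shaded band is within 1.5-fold. The members' median is -0.04, the glandular markers' is -1.31 and the adipocyte markers' is 1.84.

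Markers of other cell types differed as well, beside a background of 5.43% of all genes at least 1.5-fold higher and 3.51% lower. All 6 adipocyte markers were at least 1.5-fold higher (median 1.84), and their sum was 16.2 CPM in controls against 58.5 in knockouts, led by Cfd at 5.96 and 21.8. The highest ratios were those of Cidec (2.19), Plin1 (2.10), Cfd (1.86) and Adipoq (1.82). Their part in the higher values of Bmp5, Bmp8b, Gdf15, Acvr1c and Inhbb was not tested. Luminal and general epithelial markers were higher in 4 and lower in 1 of 12, with a median of 0.35 and a sum of 859 and 1136; the most abundant, Cdh1, was at 170 and 183, and the highest ratios were those of Calb1 (2.07), Krt19 (1.22) and Elf3 (0.86). Glandular markers were lower in 4 and higher in 1 of 7, their median was -1.31 and their sum 903 and 93.0, carried by Prss29 at 526 and 23.9. The lowest ratios were those of Prss28 (-6.56), Spink3 (-4.70), Prss29 (-4.46) and Ttr (-1.31). The gland-defining transcription factor Foxa2 was at mean counts of 280 and 300 (0.04), so the genes of the gland list differed among themselves. The part of either epithelial list in the members' values was not tested.

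Stromal markers summed to 7890.0 and 8635 CPM with a median of -0.06, and 7 of the 11 ratios were under 0. Col6a4 was the 1 marker at least 1.5-fold higher (1.72), at 353 and 1161 CPM, a larger difference than that of the sum. The most abundant, Col1a1, was at 2739 and 2960, and Lum was at 0.37, Pdgfra at -0.26 and Vim at -0.24. Leukocyte markers were above 0 in 8 of 8, with a median of 0.31 and a sum of 309 and 376, led by Ptprc at 97.8 and 129, and the highest ratios were those of Cd3e (1.09), Cd79a (0.45), Ptprc (0.40) and Itgam (0.33). Mesothelial markers had a median of 0.23 and a sum of 210.1 and 194, led by Wt1 at 159 and 135 (-0.24), with Msln at 0.36, Lrrn4 at 0.33 and Upk1b at 0.23. Of 9 ovary and oviduct markers 3 passed the filter, with a median of 0.17 and a sum of 168 and 191, led by Ovgp1 at 112 and 126 (0.17), with Foxl2 at 0.31 and Star at 0.03, and Fshr, Zp3 and Cyp19a1 were at or near 0 in both genotypes. Of the red blood cell markers Alas2 was higher, at mean counts of 147 and 403 (1.39), and Hba-a1, Hba-a2 and Hbb-b1 were listed at 0. Hbb-bs and Hbb-bt had no entry, so the level of globin RNA cannot be read from these values. The part of these lists in the members' values was not tested.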

How the data were processed

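The authors made poly(A) libraries with TruSeq, trimmed paired reads at the 5′ end and mapped them with STAR. Picard then took out duplicates and HTSeq gave counts for RefSeq genes. The authors compared genotypes with edgeR. The methods name genome mm10 and the submitters' processing notes mm9, and no coordinates were in the table; versions were not given in the sources used here. The deposited values used here are mean raw counts per gene over the 3 libraries of a genotype, whole numbers after multiplication by 3. The column named WT was taken as Foxo1f/f. The authors' columns of fold change, average log2 CPM, p-value and FDR were not used.

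Mean counts were divided by the genotype's total, and log2 ratios were taken with a pseudocount of 1. Wilson intervals came from the mean counts multiplied by 3. Duplicate removal, pooling of 2 mice and differences between libraries are not covered by these intervals. No test was made. Calls were a ratio past 1.5-fold where the genotypes' average mean count was 10 or more. The floor was 3 counts over the libraries of a genotype, and no fold is given where both genotypes were at or under it. Alternatives were folds of 2 and 1.25, a minimum of 50 or any count, centring on the median gene, a trimmed mean of log ratios and a pseudocount of 0.1. Lengths were the joined exons of each gene in GENCODE vM21 basic (GRCm38), not the authors' gene models, since the RefSeq table gives genomic spans. Positions and promoters came from RefSeq, GRCm38.p6, and all coordinates printed are of that build. The calculation was tested on simulated data. Python 3.11.15, numpy 2.4.6, pandas 2.3.3 and scipy 1.17.1 were used.

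Members and lists were chosen with earlier results of these data known. Named members were all past 1.5-fold, then the next by absolute ratio until 20 were named, and a set of main ligands, receptors, antagonists, SMADs and ID genes whatever their values; of other lists the 4 with the largest absolute ratio past the count filter were named. As exceptions to both rules, a few genes, of the members and of the lists, enter the counts, medians and sums but are not reported here by name and have no row of their own in the figures. Genes named beyond this, such as the most abundant marker of a list, defining markers at 0, and the remaining members, were chosen after their values were seen.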

Additional observations from a re-analysis of the deposited data

How the results depend on the processing

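At 2-fold, 1 member was higher and 1 lower in Foxo1d/d (Bmp5 and Fstl4), against 1.99% and 1.40% of all genes, and at the lower alternative fold 12 were higher and 8 lower, against 21.5% in either direction. With a mean count of at least 50, 1 member was past 1.5-fold higher and the lower count stayed at 3, against 3.81% and 2.58% of all genes, as 4 scarce genes left the list; with any count admitted, 7 were higher and 4 lower, against 8.11% and 5.79%. All 8 members past 1.5-fold were shared with the main list under median centring, trimmed means and a pseudocount of 0.1. The median log2 ratio of the members was 0.015 with any count admitted, a change of sign from -0.04, as scarce genes entered the list, and stayed between -0.07 and -0.04 under the other alternatives. Of 45 members followed singly, Tgfbr2 and Tgfbr3 moved by more than the half-width of their counting interval under each rescaling, by 0.02 to 0.03, without a change of sign, and the other 43 did not. No paired analysis was possible because the table holds 1 mean per genotype and no values of single libraries; for the same reason no library could be left out. Depth limits Bmp5, Bmp8b, Gdf15, Acvr1c and Grem1, which rest on mean counts under 50 in each genotype.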
